A study of Homo sapiens with 2 samples.

Results

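The genes described here encode axon guidance ligands and their receptors, and they were chosen by name. They comprise the semaphorins with their plexin and neuropilin receptors, the ephrins with their Eph receptors, the Slits with the Robo receptors, and the netrins with DCC and the UNC5 receptors. The gene names in the count matrices held 68 such members among 33694 genes. Their levels were read in single cells of H9, a human embryonic stem cell line, at 2 stages of differentiation toward enteric neural crest cells (ENCCs), the migratory cells that form the neurons and glia of the gut. The day 10 library (n = 1) came from adherent cultures on Geltrex in the last days of crest induction, fed with a TGF-β receptor inhibitor (SB431542), a WNT activator (CHIR) and retinoic acid after an initial step with BMP4. The day 15 library (n = 1) came from crestospheres, free-floating aggregates kept from day 12 in neurobasal medium with FGF2 and CHIR on ultra-low-attachment plates. Both stages were otherwise untreated. Each library pooled 2 biological repeats that the deposited tables do not tell apart, so no difference between the stages has a replicate check and no test was made. Stage, culture format, medium, depth and library cannot be told apart. The tissue label reads crestosphere for both libraries, although the day 10 cells are labelled adherent.

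Guidance cues are proteins that are secreted or held on a cell surface and that attract or repel a moving growth cone or a migrating cell. Neuropilins bind secreted class 3 semaphorins and pass the signal on through plexins, whereas most other semaphorins bind plexins directly. Ephrins are tethered to the membrane and act on Eph receptor tyrosine kinases of the neighbouring cell, and they can signal back into the cell that carries them. Slits repel cells that carry Robo receptors, and netrins attract through DCC or repel through UNC5 receptors. Trunk and vagal crest cells of vertebrate embryos are steered by neuropilin, Eph and Robo signalling, and DCC is known for guiding enteric crest cells toward netrin in the gut wall.

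Day 10 held 9627 cells and 70488169 UMIs (unique molecular identifiers, each marking 1 captured molecule), with a median of 6713 UMIs per cell, and day 15 held 6320 cells and 84976253 UMIs with a median of 11770.5. The authors kept 7295 and 5336 cells and gave each a class. At day 10 these were 4921 ENCCs, 1811 neuroepithelial progenitors (NEP), 324 cranial placode cells (CP) and 239 non-neural ectoderm cells (NNE). At day 15 they were 4934 ENCCs, 208 cells of the first and 43 of the second placode class (CP1, CP2), 104 NEP and 47 mesenchymal cells (Mes). The 2 libraries shared 102 cell barcodes. Levels are given as CPM, the UMIs of a gene per 1000000 UMIs of the same class, with exact 95% Poisson intervals that cover counting error only. The UMIs were counted at the 3′ end of each transcript and were not scaled by length. CPM values of different genes are set side by side on that basis, and differences in capture between genes were not assessed. The 10 genes leading each class by fold held SOX10, S100B and ERBB3, all of them crest or glial markers, in the ENCCs of both libraries. Among the leading genes of the day 10 NNE class were KRT7, CLDN7 and CLDN4, with 0 of the 8 listed NNE markers, although the summed level of these 8 was higher there (5522 CPM) than in any other class (12.7 to 1410 CPM). The 10 leading genes of the day 15 NEP class held 2 NNE markers (KRT18, KRT19) and 0 NEP markers, and those of CP2 held the NEP marker PAX6 and 0 CP markers. Day 10 NEP held summed NNE markers at 1410 CPM beside NEP markers at 1487 CPM. Day 10 CP held ENCC markers at 1396 CPM, against 2365 CPM in day 10 ENCCs. Only ENCCs are therefore compared between the stages, and the other classes are called by the authors' labels.

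The promoters of 3 members whose ENCC levels differed between the stages are printed because they were among the 2 with the most UMIs in ENCCs in each direction. The fourth, SEMA6A, had no entry in the RefSeq table. Each runs from 250 bases before to 50 after the RefSeq start site in GRCh38.p14, and the capitals mark the E-box, CANNTG, the site letters of basic helix-loop-helix factors. EFNB2 and EFNA3 encode ephrins that were higher at day 15, and NRP2 encodes the neuropilin that was lower. EFNB2 lies at chr13:106535613-106535912 on the minus strand, EFNA3 at chr1:155078587-155078886 and NRP2 at chr2:205682251-205682550, both on the plus strand.
EFNB2: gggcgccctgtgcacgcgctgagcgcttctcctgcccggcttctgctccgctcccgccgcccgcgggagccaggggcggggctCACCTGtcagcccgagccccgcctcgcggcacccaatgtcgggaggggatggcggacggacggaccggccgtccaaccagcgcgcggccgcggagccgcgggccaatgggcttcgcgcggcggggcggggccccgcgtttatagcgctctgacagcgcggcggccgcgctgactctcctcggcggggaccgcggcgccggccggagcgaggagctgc
EFNA3: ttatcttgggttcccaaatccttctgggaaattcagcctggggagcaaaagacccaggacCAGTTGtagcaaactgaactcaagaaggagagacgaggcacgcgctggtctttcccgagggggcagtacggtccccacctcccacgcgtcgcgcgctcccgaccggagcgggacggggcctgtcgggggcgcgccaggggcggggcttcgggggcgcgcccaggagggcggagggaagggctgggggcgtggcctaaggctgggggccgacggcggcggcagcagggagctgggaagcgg
NRP2: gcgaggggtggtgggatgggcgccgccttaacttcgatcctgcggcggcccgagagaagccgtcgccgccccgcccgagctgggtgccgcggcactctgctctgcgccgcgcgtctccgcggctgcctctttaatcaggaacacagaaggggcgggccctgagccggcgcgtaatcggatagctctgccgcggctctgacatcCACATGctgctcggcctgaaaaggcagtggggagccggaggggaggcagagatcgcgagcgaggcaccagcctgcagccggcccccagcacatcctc
All 3 windows were rich in G and C (78.7%, 69.3% and 70.0%, in the order printed) and in CpG pairs (49, 28 and 33), and each held 1 E-box. Of the 68 members, 58 had an entry in the RefSeq table. Some genes had several windows. An E-box, whose letters read the same on both strands, stood in 61.1% of the member windows and in 68.7% of all 35116 windows. The median GC content was 65.2% in member windows and 58.7% in all windows. A TATAAA match on either strand stood in 3.33% of member windows and 11.5% of all, and a GGGCGG match in 72.2% and 45.0%. These matches are letters in a window and say nothing of a factor binding there.

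Guidance transcripts were a small part of the RNA. The 68 members together held 48351 UMIs (0.0686% of all) at day 10 and 38463 (0.0453%) at day 15. EFNA2 and NTN3 had 0 UMIs in both libraries, and 4 members in all had no more than 3 UMIs in either library. A member is described with its values where it had at least 10 CPM and 20 UMIs in 1 class of at least 40 cells, up to the 36 with the highest level. 40 members passed. The 4 of them beyond the 36 (EPHB3, SEMA3C, EPHB4 and EPHA1) and the 28 that failed had a highest class level between 0 and 14.3 CPM with a median of 5.16. The rule picks genes by their highest class, and 7 of the 9 classes are not ENCCs, so the peaks are given as a description. Counting only classes with at least 20 UMIs of the gene, 9 of the 36 were highest in day 10 NNE, 6 each in day 15 NEP and CP2, 5 each in day 10 NEP and CP, 3 in CP1, and 1 in the ENCCs of each stage (ROBO1 at day 10, SEMA4C at day 15).

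**Figure D1:**
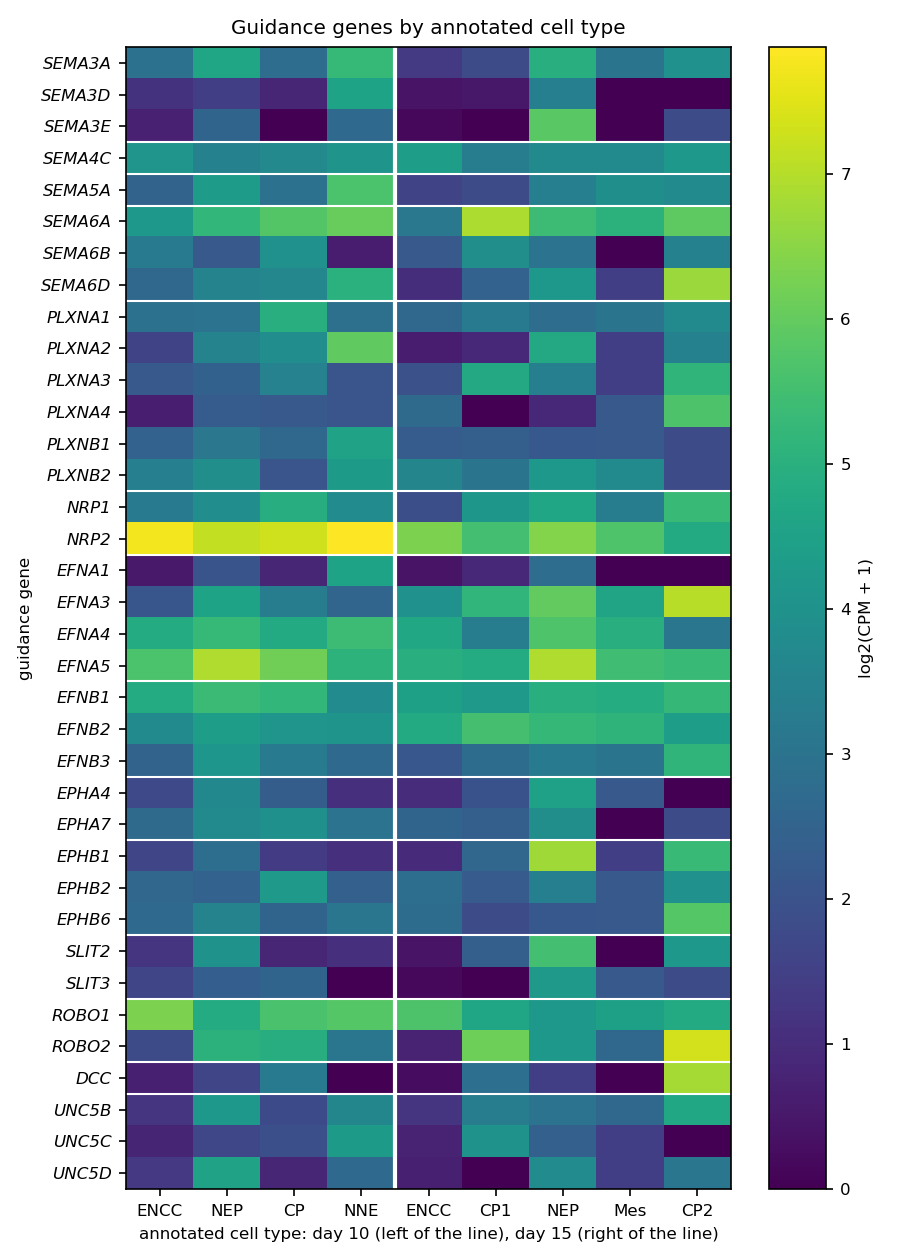
Levels of the 36 described members (vertical axis, by family) in the 9 annotated classes of both libraries (horizontal axis), as log2 of CPM + 1. Colour runs from dark (low) to yellow (high). Both ENCC columns are bright for NRP2 and ROBO1, while ROBO2, DCC and SEMA6D are brightest in CP2 and SEMA3E and EPHB1 in the day 15 NEP class.

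Neuropilins were the receptors with the most UMIs in ENCCs. NRP2, a coreceptor for class 3 semaphorins and VEGF proteins, stood at 212 CPM (interval 207 to 217, 7834 UMIs) in day 10 ENCCs and at 79.2 CPM (76.9 to 81.6, 4423 UMIs) in day 15 ENCCs. At day 10 its level was 234 CPM (212 to 257) in NNE, 157 CPM (142 to 173) in CP and 140 CPM (134 to 147) in NEP, so that ENCCs and NNE overlapped and stood above both other classes. At day 15 the ENCC interval overlapped that of NEP (83.7 CPM, 67.8 to 102) and lay above CP1 (44.8 CPM, 36.7 to 54.1), Mes (51.7 CPM, 34.6 to 74.3) and CP2 (27.4 CPM, 13.7 to 49.0). NRP1, the paralogue that binds SEMA3A with high affinity, was much lower in ENCCs. Its level there was 8.58 CPM (7.66 to 9.58) in the day 10 library, against 2.69 CPM (2.27 to 3.15) in the day 15 library. Day 10 CP cells (29.1 CPM, 22.8 to 36.6) and CP2 (39.8 CPM, 22.8 to 64.6, 16 UMIs) held the highest NRP1 levels. After each cell was thinned to 3000 UMIs, NRP2 was detected in 46.1% (exact interval 44.7 to 47.5) of day 10 ENCCs and 21.0% (19.9 to 22.2) of day 15 ENCCs. The lowest share of any class was 2.33% (0.0589 to 12.3) in CP2. Unthinned, the NRP2 shares were 75.2% and 54.4% in ENCCs, and 20.9% in CP2, at class medians of 7004, 11082 and 9256 UMIs per cell.

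The secreted class 3 semaphorins, the ligands of these neuropilins, were mostly higher in NNE and NEP than in ENCCs. SEMA3A, a repellent for sensory axons and crest cells, stood at 6.63 CPM (5.83 to 7.52) in day 10 ENCCs against 37.9 CPM (29.6 to 47.9) in NNE and 24.1 CPM (21.6 to 26.8) in NEP. At day 15 the NEP class held 30.5 CPM (21.3 to 42.4) of SEMA3A, and ENCCs 1.54 CPM (1.23 to 1.90). SEMA3D was at 22.7 CPM (16.4 to 30.8) in NNE and at most 1.78 CPM in the other day 10 classes. SEMA3E, which signals through plexin D1 without a neuropilin, reached 57.5 CPM (44.5 to 73.2) in day 15 NEP, was counted in 39 of its 104 cells, and stood at 0.125 CPM (0.0504 to 0.258) in day 15 ENCCs. The exception was SEMA3C, a cue known to attract crest cells, whose highest level was 10.1 CPM in day 15 ENCCs. Summed over the 7 genes, class 3 semaphorins came to 14.8 CPM in day 10 ENCCs, 41.2 in NEP, 9.17 in CP and 78.5 in NNE. At day 15 the sums were 13.9 CPM in ENCCs and 110 CPM in NEP.

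Membrane semaphorins differed among themselves. SEMA4C, a ligand of plexin B2, was at 16.1 CPM (14.9 to 17.5) in day 10 ENCCs and 20.2 CPM (19.1 to 21.4) in day 15 ENCCs, and the other 7 classes lay between 9.21 and 17.4 CPM. SEMA5A, a bifunctional cue with thrombospondin repeats, stood at 49.3 CPM (39.7 to 60.5) in day 10 NNE and 18.9 CPM (16.7 to 21.4) in NEP against 4.63 CPM (3.96 to 5.38) in ENCCs. SEMA6A, a ligand of plexins A2 and A4, was highest in CP1 at 119 CPM (105 to 134), where 141 of 208 cells held a UMI. Its level was 64.5 CPM (53.4 to 77.1) in day 10 NNE, 53.0 CPM (44.4 to 62.9) in day 10 CP, 35.9 CPM (32.8 to 39.2) in day 10 NEP and lowest in the ENCCs of each stage, at 17.3 CPM (16.0 to 18.7) and 7.93 CPM (7.21 to 8.71). SEMA6D, a ligand of plexin A1, reached 102 CPM (73.2 to 138, 41 UMIs in 22 of 43 cells) in CP2 and 32.0 CPM (24.3 to 41.2) in day 10 NNE, against 5.28 and 1.06 CPM in ENCCs of day 10 and day 15. SEMA6B, another plexin A ligand, was at 14.8 CPM (10.4 to 20.3) in day 10 CP and 8.50 CPM (7.58 to 9.49) in ENCCs, while NEP held 3.56 CPM (2.64 to 4.70) and NNE 1 UMI. Class 6 semaphorins were thus lower in ENCCs than in the placode classes at each stage, with summed levels of 31.3 CPM in day 10 ENCCs and 79.4 CPM in CP, then 12.9 CPM in day 15 ENCCs, 142 CPM in CP1 and 177 CPM in CP2.

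Of the plexins, the signalling receptors for semaphorins, 6 of 9 were described. PLXNB2 had the highest plexin level in ENCCs, at 9.55 CPM (8.58 to 10.6) and then 11 CPM (10.2 to 12.0), and PLXNB1 stood at 4.57 and 3.87 CPM. In day 10 NNE, PLXNB1 was at 22.2 CPM (15.9 to 30.1) and PLXNA2 at 61.2 CPM (50.4 to 73.6), the highest level of any plexin, against 2.06 CPM (1.62 to 2.57) of PLXNA2 in ENCCs. PLXNA1, the partner of neuropilin 1, was at 29.5 CPM (23.2 to 37.1) in day 10 CP and between 6.50 and 6.98 CPM in the other day 10 classes. PLXNA3 was at 26.0 CPM (19.9 to 33.3) in CP1 and 2.86 CPM (2.44 to 3.34) in day 15 ENCCs. PLXNA4, which pairs with neuropilins in sensory and sympathetic neurons, stood at 49.8 CPM (30.4 to 76.8, 20 UMIs) in CP2, had 0 UMIs in CP1, which allows up to 1.26 CPM, and was at 0.595 CPM (0.373 to 0.901) in day 10 ENCCs and 5.55 CPM (4.95 to 6.20) in day 15 ENCCs.

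Ephrins were the ligands with the most UMIs in ENCCs. EFNA5, the A-type ephrin that binds most EphA receptors, stood at 48.9 CPM (46.6 to 51.2) in day 10 ENCCs and 29.5 CPM (28.1 to 30.9) in day 15 ENCCs. Both NEP classes were higher, at 122 CPM (116 to 128) and 121 CPM (102 to 143). EFNA4 was at 27.6 CPM (26.0 to 29.4) and 25.0 CPM (23.7 to 26.3) in the ENCCs of day 10 and day 15, with intervals that overlapped. EFNA3 was at 3.30 CPM (2.74 to 3.94) in day 10 ENCCs, 22.8 CPM (20.4 to 25.4) in day 10 NEP, 14.8 CPM (13.8 to 15.8) in day 15 ENCCs, 62.8 CPM (49.1 to 79.0) in day 15 NEP and 129 CPM (96.6 to 170, 52 UMIs) in CP2. EFNA3 was thus lower in ENCCs than in the NEP class of the same library, and at day 15 also lower than in CP2. The other classes also lay above the ENCCs of their library, at 9.17 CPM in day 10 CP, 4.87 CPM in NNE, 35.6 CPM in CP1 and 23.2 CPM in Mes. EFNA1 was at 22.7 CPM (16.4 to 30.8) in NNE and at most 3.13 CPM in the other day 10 classes. In GRCh38, EFNA4 (chromosome 1, 155063731 to 155069553) and EFNA3 (155078872 to 155087538) lie next to each other on the plus strand under 1 readthrough gene, AL691442.1, so reads may be shared between the 2 and their counts carry that uncertainty.

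B-type ephrins, transmembrane ligands that also bind EPHA4, were present in every class. EFNB1 was at 28.0 CPM (26.3 to 29.7) in day 10 ENCCs, 40.2 CPM (36.9 to 43.6) in NEP and 13.0 CPM (8.33 to 19.3) in NNE, and at 21.4 CPM (20.2 to 22.6) in day 15 ENCCs. EFNB2, which marks arteries and sorts crest streams, was at 12.6 CPM (11.5 to 13.8) in day 10 ENCCs, 26.9 CPM (25.6 to 28.3) in day 15 ENCCs and 45.6 CPM (37.5 to 55.0) in CP1. EFNB3, a midline cue of the spinal cord, was at 4.74 CPM (4.06 to 5.49) in day 10 ENCCs and 16.7 CPM (14.6 to 18.9) in NEP.

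In ENCCs, Eph receptors were sparser than their ligands. Day 10 ENCCs held 9.85 CPM over the 9 EphA genes and 26.3 CPM over the 5 EphB genes, against 80.2 and 45.3 CPM of A-type and B-type ephrins. At day 15 the ENCC sums were 9.74, 30.1, 69.6 and 51.7 CPM in the same order. EPHB1 reached 106 CPM (88.3 to 127) in day 15 NEP, in 54 of 104 cells, 39.8 CPM (22.8 to 64.6, 16 UMIs) in CP2 and 0.967 CPM (0.726 to 1.26) in day 15 ENCCs. EPHB6, a receptor without kinase activity, was at 54.7 CPM (34.3 to 82.9) in CP2, but 8 of its 22 UMIs there came from 1 cell, and it was at 5.52 and 5.93 CPM in ENCCs of the respective stages. EPHB2 was at 17.9 CPM (13.1 to 24.0) in day 10 CP and 5.01 CPM (4.31 to 5.78) in ENCCs. EPHA4, which binds both ephrin classes, was at 11.7 CPM (9.96 to 13.6) in day 10 NEP, 21.8 CPM (14.1 to 32.2) in day 15 NEP, and 2.33 and 1.00 CPM in ENCCs. EPHA7 was the EphA gene with the highest level in ENCCs, at 5.66 CPM (4.92 to 6.48) and 4.76 CPM (4.21 to 5.37).

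In the Slit and Robo family, ROBO1 was highest in ENCCs and ROBO2 in other classes. ROBO1 stood at 79.2 CPM (76.3 to 82.1) in day 10 ENCCs, 54.2 CPM (44.1 to 65.9) in NNE, 48.3 CPM (40.04 to 57.7) in CP and 27.6 CPM (25.0 to 30.5) in NEP. In day 15 ENCCs it was at 50.6 CPM (48.8 to 52.5), and the other day 15 classes lay between 17.4 and 27.4 CPM. At both stages the ENCC interval of ROBO1 was above that of every other class except CP2, whose interval (13.7 to 49.0, 11 UMIs) met it at day 15. ROBO2 ran the other way, at 2.52 CPM (2.03 to 3.08) in day 10 ENCCs, 32.4 CPM (29.5 to 35.5) in NEP, 28.7 CPM (22.5 to 36.2) in CP, 0.734 CPM (0.527 to 0.996) in day 15 ENCCs, 69.5 CPM (59.3 to 80.9) in CP1 and 159 CPM (123 to 203) in CP2. A UMI of ROBO2 was present in 102 of 208 CP1 cells and 28 of 43 CP2 cells. SLIT2, the ligand of both receptors, was at 15.2 CPM (13.2 to 17.4) in day 10 NEP, 45.3 CPM (33.9 to 59.4) in day 15 NEP, and 1.30 CPM (0.958 to 1.72) and 0.340 CPM (0.205 to 0.531) in ENCCs. SLIT3 was at 18.3 CPM (11.3 to 28.0) in day 15 NEP and at most 4.79 CPM in any other class.

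Free RNA from lysed cells can add UMIs to every droplet, which bears on the lowest of these values. SST, the somatostatin transcript that led CP1 by fold, was at 7858 CPM in CP1 and at 56.8, 55.8 and 49.9 CPM in day 15 ENCCs, NEP and Mes, like low levels in cells of unlike type. ROBO2 also stood far below CP1 in day 15 ENCCs. Whether these ENCCs express ROBO2 cannot be read from its 41 UMIs, and the source of these UMIs was not tested. Thinned to 3000 UMIs, ROBO2 was detected in 0.182% (0.0834 to 0.346) of day 15 ENCCs and 13.9% (9.54 to 19.4) of CP1 cells.

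Netrin signalling genes had few UMIs in ENCCs. The 3 netrins summed to 0.244 CPM in day 10 ENCCs and 0.251 CPM in day 15 ENCCs, and to at most 0.712 CPM in any class. DCC, the attractive netrin receptor, was at 0.622 CPM (0.395 to 0.934, 23 UMIs) and 0.197 CPM (0.0983 to 0.352, 11 UMIs) in ENCCs of day 10 and day 15. The classes labelled placode held summed neuronal markers at 690 CPM (CP), 3211 CPM (CP1) and 5871 CPM (CP2), against 12.0 and 37.9 CPM in ENCCs of day 10 and day 15, and their part in the levels of DCC and the other members in these classes was not tested. DCC was higher there, with 8.38 CPM (5.18 to 12.8) in day 10 CP, 6.28 CPM (3.51 to 10.4) in CP1 and 112 CPM (81.7 to 150) in CP2, where 20 of 43 cells carried 45 UMIs. Of the repulsive receptors, UNC5D was highest in day 10 NEP (22.1 CPM, 19.7 to 24.7), where UNC5B was also high (17.4 CPM, 15.3 to 19.7), while CP2 held 24.9 CPM of UNC5B on 10 UMIs. Both receptors were at or below 1.46 CPM in ENCCs of either stage. UNC5C was at 18.4 CPM (12.8 to 25.7) in day 10 NNE, 15.5 CPM (10.9 to 21.4) in CP1, and 0.758 and 0.716 CPM in ENCCs.

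**Figure D2:**
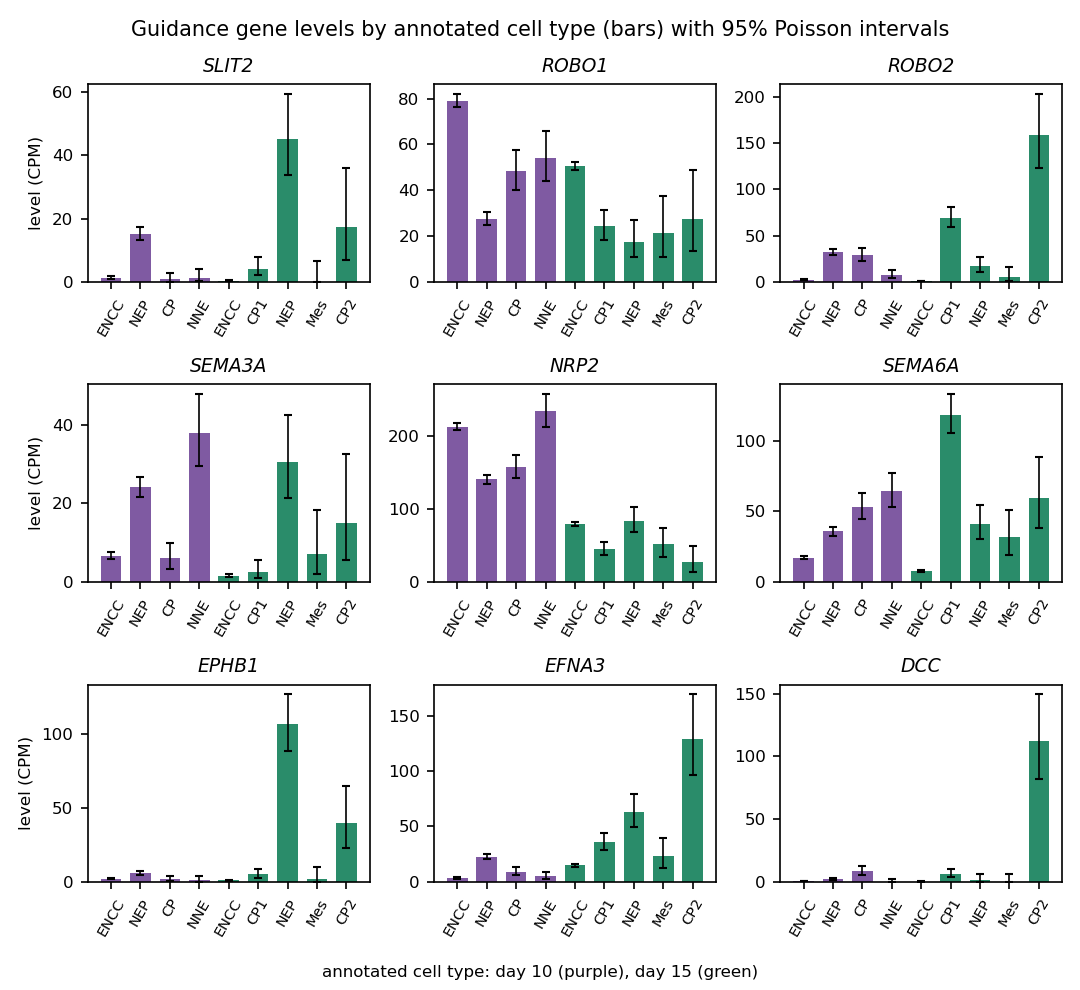
CPM (vertical axes, each from 0) of 9 members in the annotated classes of day 10 (purple) and day 15 (green) on the horizontal axes, with 95% Poisson intervals as error bars. ROBO1 is highest in ENCCs (79.2 CPM at day 10), ROBO2 and DCC are highest in CP2 (159 and 112 CPM), and EPHB1 in day 15 NEP (106 CPM).

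Set gene by gene against the ENCCs of the same library, more members were higher in the other classes than lower. A gene was compared where the mean of its 2 CPM values was at least 2, and it was counted where the ratio of CPM + 1 was at least 2-fold. The classes were clustered on these same genes, so these counts describe the classes and are no test. With this filter, a gene at 1 CPM or less in ENCCs could enter only as higher. Those so entered were EPHA2, SEMA3E and PLXNA4 in NEP, and DCC and PLXNA4 in CP. In NNE they were EPHA2, EFNA1, UNC5C, SEMA3E and EPHA1. In CP1 they were SEMA6C, ROBO2, EPHA3, EPHA6, SEMA5B, EPHB1, SLIT2, UNC5C, SLIT1 and DCC. Likewise SEMA6B in NNE, and SEMA3C and PLXNA4 in CP1, could enter only as lower. The shares over all genes used the same filter and were not matched for level. In day 10 NEP, 19 of 43 members compared were higher (14.2% of all genes compared) and 3 were lower (2.69% of all), namely ROBO1, PLXND1 and SEMA6B. In day 10 CP, 13 of 36 were higher (6.32% of all) and 1, PLXNB2, was lower (2.46% of all). In day 10 NNE, 17 of 41 were higher (14.9% of all) and 3 were lower (5.76% of all), namely SEMA3C, EFNB1 and SEMA6B. In CP1, 19 of 43 were higher (16.3% of all) and 6 were lower (6.83% of all), namely EFNA4, SEMA4C, ROBO1, SEMA3C, EPHB4 and PLXNA4. The median log2 ratios of the members were 0.82, 0.49, 0.55 and 0.70 in NEP, CP, NNE and CP1, beside 0.19, 0.02, 0.14 and 0.20 over all genes compared. ROBO2 and SEMA6A were higher in all 4 classes, and EFNA3 and SEMA4F in NEP, CP and CP1. PLXNA2 was higher in NEP, CP and NNE, SEMA6D in CP, NNE and CP1, and UNC5B in NEP, NNE and CP1. SEMA6A no longer passed in NEP with TMM scaling, with each cell weighted equally or in G1 cells, and EFNA3 no longer passed in CP1 with TMM scaling or in G1 cells. SEMA6D no longer passed in CP with TMM scaling. Scaling by the trimmed mean of M values (TMM) moved the median of all genes by -0.29, -0.09, -0.24 and -0.33 in NEP, CP, NNE and CP1. It left 15, 12, 15 and 15 members higher and 3, 1, 4 and 8 lower, with 10.4%, 5.62%, 11.7% and 11.2% of all genes higher and 5.26%, 3.15%, 8.68% and 11.3% lower.

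The comparison of the stages asked which guidance genes of the ENCCs differed between the monolayer and the crestospheres. Of the 68 members, 38 had a mean under 2 CPM in ENCCs and were not compared. Of the other 30, 4 were higher at day 15 (7.86% of all 10878 genes compared) and 6 were lower (5.99% of all). The median log2 ratio was -0.20 over the 30 members and -0.13 over all genes. The genes that were higher were 2 ephrins, 1 secreted semaphorin and 1 plexin. Marker levels in ENCCs differed between the stages too. From day 10 to day 15 the summed ENCC markers went from 2365 to 1558 CPM, the mesenchymal markers from 75.7 to 6.37 CPM, the NNE markers from 115 to 12.7 CPM, the NEP markers from 116 to 31.9 CPM and the neuronal markers from 12.0 to 37.9 CPM. Without the 256 day 10 ENCCs described below, the day 10 NNE and NEP markers were at 56.2 and 46.3 CPM. The part of these markers in the values of the members was not tested. EFNA3 went from 3.30 CPM at day 10 to 14.8 CPM at day 15 (log2 ratio of CPM + 1, 1.88). EFNB2 went from 12.6 to 26.9 CPM (1.04), and the promoters of both are among those printed. SEMA3C went from 3.87 to 10.1 CPM (1.19) and PLXNA4 from 0.595 to 5.55 CPM (2.04). PLXNA4, under 1 CPM at day 10, could enter this comparison only as higher. The 6 that were lower were both neuropilins and 4 semaphorins. NRP2 went from 212 to 79.2 CPM (-1.41) and NRP1 from 8.58 to 2.69 CPM (-1.38). SEMA3A, a ligand of NRP1, went from 6.63 to 1.54 CPM (-1.59). The class 6 semaphorins that were lower were SEMA6D, from 5.28 to 1.06 CPM (-1.61), SEMA6A, from 17.3 to 7.93 CPM (-1.03), and SEMA6B, from 8.50 to 3.56 CPM (-1.06). These 3 were all the class 6 members compared, and SEMA3C and SEMA3A, both of class 3, differed in opposite directions. The counting intervals of all 10 genes were apart between the stages. ROBO1 (-0.63) and EFNA5 (-0.71) were lower at day 15 by less than the 2-fold, with intervals apart, and EFNA4 (-0.14, and 0.04 with TMM scaling), PLXNB2 (0.19) and EPHB2 (0.27) had intervals that overlapped.

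**Figure D3:**
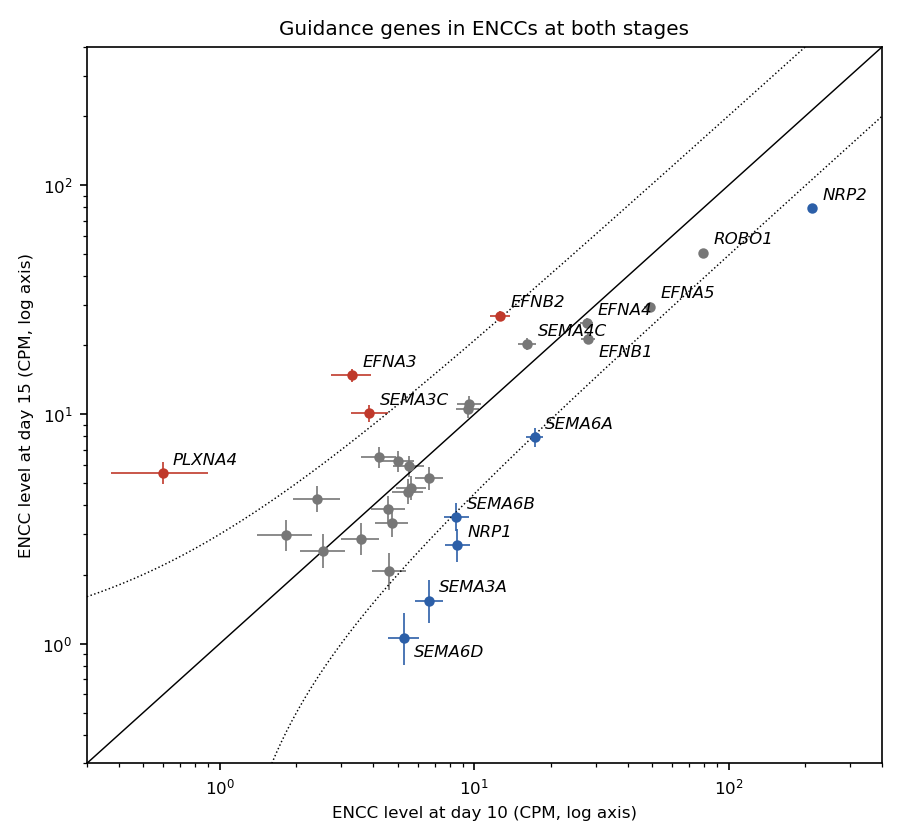
Levels in ENCCs at day 10 (horizontal, CPM, log axis) against day 15 (vertical, CPM, log axis) for the 30 members compared, with 95% Poisson intervals as error bars. The solid line marks equal levels and the dotted curves a 2-fold ratio of CPM + 1. The 4 red points (PLXNA4, EFNA3, SEMA3C, EFNB2) lie above the upper curve and the 6 blue points (NRP2 among them, at 212 and 79.2 CPM) below the lower one.

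TMM scaling moved the median of all genes by 0.17, left the 4 higher members as they were and took SEMA6A and SEMA6B off the lower list, with 9.77% of all genes higher and 4.24% lower. With a pseudocount of 5 CPM only EFNA3 and NRP2 passed the 2-fold. Among ENCCs in the G1 phase EFNB2 no longer passed, and 11 members were lower (8.85% of all genes lower and 8.25% higher in these cells). Thinned to 3000 UMIs, EFNA3 was detected in 0.854% (0.616 to 1.15) of day 10 ENCCs and 4.44% (3.88 to 5.05) of day 15 ENCCs, and EFNB2 in 4.19% (3.65 to 4.79) and 7.40% (6.68 to 8.16). ROBO1 was detected in 21.3% (20.2 to 22.5) and 13.6% (12.6 to 14.5), and EFNA5 in 13.2% (12.2 to 14.2) and 8.05% (7.30 to 8.84). The lowest class share was 5.77% (2.15 to 12.1) in day 15 NEP for ROBO1 and 6.98% (1.46 to 19.1) in CP2 for EFNA5, and the unthinned ENCC shares were 42.4% and 41.7% for ROBO1 and 27.3% and 26.6% for EFNA5.

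Cells that had been filtered out of the annotated set were set against the kept cells of the same library. Of the members compared, 2 of 46 were at least 2-fold higher in the filtered cells of day 10 (0.802% of all genes), namely SLIT2 and UNC5B, and 10 of 39 in those of day 15 (6.02% of all). No member was lower at either stage (0.0341% and 0.0355% of all).

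At day 10, 256 of the 4921 cells of the ENCC class were outside the numbered subclusters. Their subtype label reads Non-NC, although their class label counts them in every ENCC value of that stage given here. They carried much of the ENCC signal of some members. Their summed NEP markers came to 1197 CPM against 46.3 CPM in the numbered ENCCs, and their summed ENCC markers to 740 against 2471 CPM. Their NNE markers came to 1018 against 56.2 CPM, and their CP markers to 22.2 against 22.1 CPM. PAX6, a neuroepithelial transcription factor, was at 458 CPM in them and 6.69 CPM in the numbered ENCCs. ROBO2 was at 29.3 CPM (22.7 to 37.3) in these 256 cells and 0.778 CPM (0.513 to 1.13) in the numbered ENCCs, SLIT2 at 17.3 CPM (12.3 to 23.7) and 0.259 CPM (0.119 to 0.492), and UNC5D at 16.0 CPM (11.2 to 22.2) and 0.519 CPM (0.307 to 0.820). EFNA5 was at 135 CPM (120 to 151) and 43.3 CPM (41.1 to 45.5), SEMA3A at 24.9 CPM (18.8 to 32.3) and 5.45 CPM (4.70 to 6.28). ROBO1 was at 49.3 CPM (40.6 to 59.4) and 81.1 CPM (78.1 to 84.2). These cells were singled out after their values were seen. At day 15, 27 ENCCs were also outside the numbered subclusters, with neuronal markers at 905 CPM and CP markers at 264 CPM. Without either set, the log2 ratio between the stages went from -1.02 to -0.13 for ROBO2. It went from -0.78 to 0.07 for SLIT2 and from -0.61 to 0.09 for UNC5D, all 3 below the filter on low values. With the numbered ENCCs alone the stage comparison kept all 4 higher members and 5 of the 6 lower ones, with SEMA6A at -0.96 just short. Whether these 256 cells are crest cells, progenitors or droplets holding both was not tested.

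The authors split the ENCCs of each library into subclusters, numbered ENCC 1 to 4 at day 10 (3001, 1129, 348 and 187 cells) and ENCC 1′ to 4′ at day 15 (1665, 2377, 727 and 138 cells). The numbers of the 2 libraries do not correspond. A member was counted where its highest subcluster was at least 2-fold over the median of the other 3, on CPM + 1. At day 10 this held for 6 of 32 members compared (4.71% of all genes), 5 of them in ENCC 4. That share covers genes highest in any subcluster. The share of all genes highest in ENCC 4, the subcluster with the fewest cells, was not counted. NRP1 was at 26.8 CPM (18.9 to 36.9) in ENCC 4 and at 7.01, 9.13 and 6.23 CPM in ENCC 1 to 3, with its interval above the others. PLXNA2 (8.69 CPM, 12 UMIs), SEMA5A (10.1 CPM, 14 UMIs) and SLIT3 (7.24 CPM, 10 UMIs) were also highest in ENCC 4 but rest on few molecules. In ENCC 1 to 3, PLXNA2 was under 2 CPM and SLIT3 at 1.85 to 2.23 CPM. Both thus passed the filter on the mean through ENCC 4. SEMA6B (18.1 CPM) was counted there too, but not with each cell weighted equally or in G1 cells. The sixth was EFNA5, at 82.5 CPM (76.4 to 89.0) in ENCC 2 against 31.4, 21.8 and 44.2 CPM in ENCC 1, 3 and 4. With each cell weighted equally PLXNA1 was also counted, and in G1 cells SEMA3B and EFNB2, all highest in ENCC 4. ENCC 2 also had the highest ROBO1, at 98.9 CPM (92.2 to 106) against 70.2 to 76.3 CPM, and NRP2 lay between 183 and 237 CPM in all 4. The summed CP markers were 153 CPM in ENCC 4 and 15.5 to 23.6 CPM in ENCC 1 to 3, most of it NEUROG1, a proneural factor of sensory neurons, and the neuronal markers were 59.4 CPM in ENCC 4 and 6.23 to 11.1 CPM in the others. Their part in the ENCC 4 values was not tested.

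At day 15, 3 of 29 members compared were counted (5.35% of all genes), all highest in ENCC 4′. That share again covers genes highest in any subcluster. The share of all genes highest in ENCC 4′, the subcluster with the fewest cells, was not counted. EFNA3 was at 81.1 CPM (67.4 to 96.8) in ENCC 4′, where 71 of 138 cells held a UMI, and at 20.6, 7.15 and 12.9 CPM in ENCC 1′ to 3′. EPHB2 (13.2 CPM, 20 UMIs) and NRP1 (6.60 CPM, 10 UMIs) rest on fewer molecules, and when only G1 cells were used EPHB2 was highest in ENCC 1′ and NRP1 was not counted. SEMA4C (35.0 CPM, 26.2 to 45.7) and NRP2 (113 CPM, 96.5 to 131) also had their highest level in ENCC 4′ with intervals above the others, by less than the 2-fold. EFNB2 was highest in ENCC 1′ at 33.6 CPM (31.1 to 36.4) against 19.4 to 24.6 CPM. The neuronal markers of ENCC 4′ (27.0 CPM) and its CP markers (13.2 CPM) were within the range of ENCC 1′ to 3′ (25.9 to 39.7 and 12.5 to 16.6 CPM). Its mesenchymal markers (17.8 CPM), NNE markers (16.5 CPM) and NEP markers (36.9 CPM) were above those of ENCC 1′ to 3′ (4.76 to 7.53, 11.6 to 13.0 and 19.3 to 35.3 CPM). These sums have no intervals. In ENCC 4′, 7 of 9 mesenchymal, 5 of 8 NNE and 5 of 8 NEP markers had no more than 3 UMIs. The part of the markers in its values was not tested. ENCC 4′ held 119 of its 138 cells in G1, against 546 of 1665 in ENCC 1′. Over all day 15 ENCCs, EFNA3 was at 22.7 CPM in G1, 9.80 CPM in S and 13.4 CPM in G2M, so phase and subcluster move together for this gene. In G1 cells alone EFNA3 still peaked in ENCC 4′ by more than the 2-fold.

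**Figure D4:**
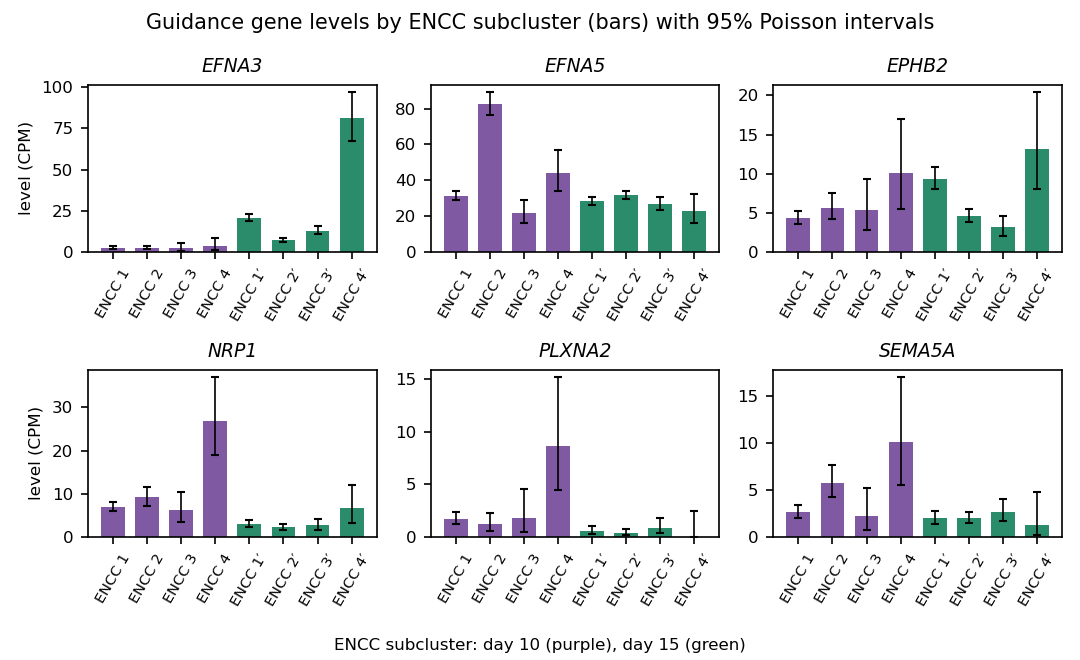
CPM (vertical axes, from 0) of 6 members in the ENCC subclusters of day 10 (purple) and day 15 (green), with 95% Poisson intervals as error bars. EFNA3 stands out in ENCC 4′ (81.1 CPM), EFNA5 in ENCC 2 (82.5 CPM) and NRP1 in ENCC 4 (26.8 CPM), while the bars of EPHB2, PLXNA2 and SEMA5A have wide intervals.

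A second list held 52 other genes of guidance and crest migration, among them coreceptors, cell adhesion molecules, intracellular effectors and the chemokine, GDNF, endothelin and neuregulin pathways. Of 36 compared in ENCCs, 8 were at least 2-fold higher at day 15 (7.86% of all genes) and 5 lower (5.99% of all), with a median log2 ratio of 0.12. DRAXIN, a secreted ligand of DCC, went from 4.90 CPM (4.21 to 5.67) to 53.7 CPM (51.8 to 55.7). CXCR4, the receptor for the chemokine CXCL12, went from 5.22 CPM (4.51 to 6.01) to 48.5 CPM (46.7 to 50.3), and its ligand CXCL12 from 7.93 CPM (7.05 to 8.89) to 1.24 CPM (0.961 to 1.56). L1CAM, an adhesion molecule that associates with NRP1, went from 0.379 CPM (0.207 to 0.636) to 9.94 CPM (9.13 to 10.8). FYN, CRMP1 and DPYSL2, all intracellular effectors of semaphorin signalling, were higher by log2 ratios of 1.22, 1.54 and 1.19, as were FARP1 (1.56), a plexin effector, and LINGO1 (1.45), a Nogo coreceptor. RGMA, the repulsive ligand of neogenin, went from 10.6 CPM (9.53 to 11.7) to 2.69 CPM (2.27 to 3.15), and the collapsin response mediator DPYSL5 (-1.23), the UNC5-binding adhesion protein FLRT1 (-1.22) and the axonal adhesion protein CNTN2 (-1.14) were also lower. The receptors known for enteric crest migration gave 36.4 and 53.1 CPM for EDNRB, 24.0 and 26.1 CPM for GFRA1, and 68.8 and 107 CPM for ERBB3, none of them past the 2-fold. RET had 0 UMIs in day 10 ENCCs, which allows up to 0.0812 CPM, and was at 0.0537 CPM at day 15.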

How the data were processed

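Single-cell 3′ RNA libraries were made with a Chromium kit at 2 stages, with 1 library per stage. The submitters' processing notes name Cell Ranger, Seurat 4.0.4 and GRCh38, while the study's methods name kallisto and bustools. The annotation release is not given in the sources used here. The authors deposited raw UMI counts per gene and cell, not normalized, and metadata with the percent of mitochondrial UMIs, a phase, class and subcluster for each cell, and a further score that was not used. Cells that the authors filtered on genes, UMIs and mitochondrial percent remain in the deposited matrices and entered only where named. The study's methods also name hashtag antibodies, with the pooled cells demultiplexed in Seurat. No doublets were removed here, and whether the authors removed any is not stated in the paper.

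Members were the gene names matching the 4 ligand and receptor families. Members and lists were chosen with earlier results of these data known. Counts were summed per class and divided by the UMIs of the class (CPM). With 1 library per stage no test was made. Log2 ratios used CPM + 1, which understates changes of low genes. Genes with a mean of at least 2 CPM were compared, and a log2 ratio of 1 in either direction was counted. Intervals are exact Poisson for CPM and Clopper-Pearson for shares, at 95%, and 3 UMIs were taken as the limit of a count of 0. For shares of cells, each cell was thinned to 3000 UMIs and shallower cells were left out (2 ENCCs at day 10, 0 at day 15). The code for levels, intervals and counts was checked on simulated counts, which says nothing of differences between the stages. Alternatives covered the pseudocount, TMM from edgeR 4.0.16 in R 4.3.3, median-of-ratios scaling, the filter on low values, weighting by cell, G1 cells, numbered ENCCs, and all cells. Other steps ran in Python 3.11.15 with numpy 2.4.6, scipy 1.17.1, pandas 2.3.3 and matplotlib 3.10.9. Gene positions came from GENCODE 29.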

Additional observations from a re-analysis of the deposited data

Results flagged for a closer look

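Cells that the authors had filtered out entered the comparison of the stages only in the setting with all deposited cells. The members given here were at least 2-fold higher in them on CPM + 1 than in the kept cells of the same library, with intervals apart, and EPHA3 and SEMA5B among them had a mean under 2 CPM. At day 10, 0.802% of all genes compared were higher by this fold, and 6.02% at day 15. At day 10, over 2332 filtered cells, SLIT2 was at 11.4 CPM (4.79 in kept cells) and UNC5B at 12.8 CPM (5.75). At day 15, over 984 filtered cells, ROBO2 was at 31.8 CPM (4.87 in kept cells), SEMA6A at 49.0 CPM (13.5), UNC5C at 9.30 CPM (1.38), SLIT2 at 5.20 CPM (1.46), UNC5B at 5.77 CPM (1.91) and SLIT1 at 3.57 CPM (0.563). EPHB1 was at 7.96 CPM (3.40), EPHA3 at 2.68 CPM (0.514), SEMA5B at 2.88 CPM (0.298), PLXNA3 at 11.2 CPM (4.11), SEMA6D at 5.48 CPM (2.19) and SEMA6B at 9.79 CPM (4.04) in the same cells. The filtered day 15 cells had a median of 21367 UMIs against 11089 in kept cells, with summed CP markers at 682 against 78.9 CPM and neuronal markers at 1309 against 204 CPM. The filtered day 10 cells had a median of 3679 UMIs against 7101, with NEP markers at 925 against 462 CPM. The part of these markers and depths in the values was not tested. Counts of SLIT1 carry the added uncertainty of the overlapping readthrough gene ARHGAP19-SLIT1.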

How the results depend on the processing

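No paired analysis was possible because each stage has 1 library and no result comes from a test. In the stage comparison (4 members higher, 6 lower), a pseudocount of 5 CPM gave 1 higher and 1 lower (4.39% and 2.54% of all genes), a mean of at least 10 CPM gave 1 and 2 (6.97% and 4.15%, fewer genes compared), no filter on low values gave 10 lower (3.83%), and G1 cells gave 11 lower (8.85%). All kept cells gave 2 higher and 12 lower (7.31% and 9.29% of all genes), and all deposited cells 2 and 11 (8.39% and 8.79%); there, fewer cells of a class and less RNA per cell cannot be told apart. Against ENCCs, a pseudocount of 5 CPM gave 11 higher and 1 lower in NEP, 7 and 0 in CP, 1 lower in NNE and 12 higher in CP1. A pseudocount of 0.1 CPM gave 2 lower in CP, and G1 cells gave 5 lower in NNE. Thinning to 5000 UMIs gave ENCC shares of 62.4% (NRP2), 31.1% (ROBO1) and 19.1% (EFNA5) at day 10 and 30.8%, 22.2% and 13.7% at day 15, and asking for at least 2 UMIs gave 14.6%, 2.52% and 1.30%, then 3.12%, 1.20% and 0.304%. Each share was higher at day 10 under every one of these settings. Of 324 log2 ratios of the 36 described members under 9 alternatives to the stage comparison, 234 stayed within the counting error of the ratio. The other 90 moved beyond it, and no ratio past the 2-fold changed sign. SEMA3C, higher at day 15, is outside the 36 and is not covered by these ratios. Of the 90, 19 came from adding the other kept classes and 23 from all deposited cells. The causes were not tested. Depth limits the small classes most, since 3 UMIs are 7.46 CPM in CP2 and 5.35 CPM in Mes.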
